A study of Mus musculus with 36 samples.

Results

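The 8 genes described here encode the receptor for epidermal growth factor (EGF) and its close partners: the ligands Hbegf, Areg, Ereg and Tgfa, the receptors Egfr, Erbb2 and Erbb3, and the intracellular inhibitor Errfi1. They were taken by symbol from a table of 29883 genes. Hbegf was selected on its measured lower level in tumour cells after myelin, so its values in tumour cells are given as a description, with no test. The other 7 were chosen by their place in the family, with earlier results of these data known. The libraries are bulk RNA sequencing of mouse macrophages grown from bone marrow and of a tumour line, PDG-Ink4a Recurrent. That line comes from a brain tumour model in which platelet-derived growth factor B is forced on in Nestin-positive progenitors that lack Ink4a/Arf, and all 6 tumour cell groups share this background. Each cell type was kept alone (mono-culture) or with the other (co-culture) and collected without myelin debris (control, 0 h), or 6 h or 24 h after it was given. The resulting 12 groups hold 3 libraries each, numbered 001, 002 and 003.

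The labels give no strain or age, name a single tumour line, describe the cells as sorted, and do not say whether libraries of a group are separate cultures. The p-values therefore measure the spread between these libraries, which may be technical. How long the 0 h cultures were kept is not stated, so an effect of myelin and one of hours in culture cannot be told apart. Totals ran from 7911378 to 15319104 counts per library, with a median of 12262573. All 12 macrophage markers were detected in macrophages, with a summed level of 15108 to 20953 CPM (counts scaled to the TMM-normalised library size). Of the glioma markers, mono-cultured tumour cells at 0 h had Pdgfra at 123 CPM, Sox9 at 73.5 CPM and Sox2 at 18.5 CPM, while Sox10, Ptprz1 and Gfap were each at most 0.149 CPM. The 11 glioma markers found summed to 6982 to 7658 CPM in these cells. In mono-cultured macrophages at 0 h they summed to 3908 to 4433 CPM, so the list as a whole is not specific to tumour cells. A list of 6 fibroblast genes summed to 16171 to 29746 CPM in the tumour libraries. Macrophage markers summed to between 14.6 and 26.2 CPM in the 6 tumour libraries numbered 001, and to between 263 and 1777 CPM in those numbered 002 and 003. The gene CT010467.1 took 0.267 to 13.4% of counts in the tumour libraries numbered 001, and at most 2.20% in 002 and 003. Tumour libraries of the same number deviated together, but the labels do not say that the number pairs them. A value with the number as a block is given where it changes a call.

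EGF receptors are membrane kinases that pair up when a ligand binds and switch on the Ras and MAP kinase pathway. Hbegf, Areg, Ereg and Tgfa are made as membrane-bound precursors and are released by proteases such as Adam17. Erbb2 has no known ligand and acts as a partner, Erbb3 binds neuregulins and has little kinase activity of its own, and Errfi1 (also called Mig6) is induced by the pathway and binds and restrains the receptor kinase. EGFR is among the genes most often altered in human glioblastoma.

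Promoter sequence is shown for Areg, a ligand, and Errfi1, the inhibitor, because both fell in mono-cultured tumour cells and both windows hold the same 8-letter motif. RefSeq promoter windows (GRCm38.p6) were found for 5 of the 8 genes, 6 windows in all. None was found for Hbegf, Ereg or Erbb3, so Hbegf and Ereg, also lower at 24 h, were not searched. The 250 bases before each start were searched on both strands for TGACGTCA (the cyclic AMP response element), TATAAA (the TATA box), TGANTCA (the AP-1 motif) and GGAATG (the TEAD motif), none of which overlapped another in the windows shown. In the sequences, which run 5′ to 3′ on the plus strand, capitals mark TGACGTCA and TATAAA.
Areg, chr5:91139349-91139598: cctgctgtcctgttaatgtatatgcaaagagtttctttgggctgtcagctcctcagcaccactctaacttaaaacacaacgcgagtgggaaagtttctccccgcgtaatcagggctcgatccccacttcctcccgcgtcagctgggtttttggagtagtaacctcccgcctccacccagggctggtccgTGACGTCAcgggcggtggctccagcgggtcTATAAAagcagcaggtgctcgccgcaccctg
Errfi1, chr4:150854820-150855069: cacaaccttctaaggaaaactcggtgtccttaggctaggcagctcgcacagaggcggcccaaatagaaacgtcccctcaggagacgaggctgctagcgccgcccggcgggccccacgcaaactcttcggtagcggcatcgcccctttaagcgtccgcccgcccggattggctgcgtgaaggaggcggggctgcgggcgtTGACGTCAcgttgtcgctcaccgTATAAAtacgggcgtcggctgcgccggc

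TGACGTCA begins 61 bases before the start of Areg and 51 bases before this start of Errfi1, and TATAAA begins 31 and 28 bases before them. Of all 32851 windows, 1.55% hold TGACGTCA, 12.4% TATAAA, 6.75% TGANTCA and 12.6% GGAATG. The windows of Tgfa and Egfr held none of the 4 motifs. Those of Erbb2 and of the other Errfi1 start held GGAATG only. A match describes the letters and is not evidence of a bound site.

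In mm10, Areg lies at chr5:91139599-91148432 and Ereg at chr5:91074622-91093646, close together on the chromosome. Tgfa lies at chr6:86195223-86275719, Hbegf at chr18:36504927-36515805 and Errfi1 at chr4:150853919-150868892. Egfr (chr11:16752203-16918158) and Erbb2 (chr11:98412470-98437716) share a chromosome, and Erbb3 lies at chr10:128567523-128589652. All 8 are protein-coding. GENCODE annotates an antisense transcript over the Errfi1 region, and the sources used here do not say whether counting used strand, so Errfi1 counts could include reads from it.

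Before myelin, tumour cells in mono-culture carried the receptors Egfr and Erbb2, the ligands Hbegf and Ereg, and Errfi1, while macrophages carried mainly Errfi1 and Erbb3. Levels are compared between genes per kilobase of annotated exon (GENCODE M21). In tumour cells at 0 h the order of the mean levels was Errfi1 (33.6 CPM per kb), Hbegf (17.8), Ereg (14.0), Egfr (8.14), Erbb2 (7.55), Areg (0.992), Tgfa (0.472) and Erbb3 (0.0494). The length joins all annotated exons of a gene and may differ from that of the expressed transcript. In CPM without the length, the means were 92.2 for Egfr, 86.1 for Hbegf and 57.6 for Ereg, so the order of these genes depends on it. Over the 18 tumour libraries the ranges of Egfr (6.23 to 11.9 CPM per kb) and Erbb2 (5.86 to 9.86) overlapped, as did those of Hbegf (3.23 to 26.7) and Ereg (3.53 to 26.6). In mono-cultured macrophages at 0 h the order was Errfi1 (3.70 CPM per kb), Erbb3 (0.803), Hbegf (0.346) and Egfr (0.250), with the remaining 4 genes at most at 0.0212.

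Of the 7 tested members, 6 were lower and 1 was higher in macrophages than in tumour cells (mono-culture, 0 h). In this comparison 70% of 14776 genes passed the threshold, an adjusted p (Benjamini-Hochberg) under 0.05 in edgeR's quasi-likelihood test, with 32.4% higher and 37.7% lower in macrophages. The higher one was the neuregulin receptor Erbb3, with 4.76, 4.77 and 4.96 CPM in macrophages against 0.394, 0.413 and 0.0830 CPM in tumour cells (log2 difference 4.06 ± 0.42 SE, adjusted p = 1.5e-09). Egfr was lower in macrophages by a log2 difference of -4.89 ± 0.28 (adjusted p = 8.61e-15), and Errfi1 by -3.09 ± 0.33 (adjusted p = 2.71e-09). Ereg had 0 counts in the 3 macrophage libraries and 1997 in the 3 tumour libraries, so its level was at least 674-fold lower against a floor of 3 counts over the group. Erbb2, Tgfa and Areg had 2, 1 and 1 counts in macrophages, and tumour cells exceeded them by ratios of 678 (95% counting interval 187 to 5606), 104 (18.3 to 4161) and 41.5 (7.05 to 1680). Hbegf, without a test, had a mean of 1.67 CPM in macrophages and 86.1 CPM in tumour cells.

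After 24 h of myelin debris, mono-cultured tumour cells had lower levels of 3 ligands and of the inhibitor. Areg, Ereg and Errfi1 fell, and Hbegf, the gene chosen for this pattern, was lower as well. Tgfa, a ligand of the same receptor, had a higher mean at 24 h, and the mRNA of the receptors Egfr and Erbb2 was not called as changed. In all, 3 of 6 tested members were called, each lower. Among all 13603 genes tested 10.5% were called, 3.66% higher and 6.81% lower. DESeq2 called 4 of the 6 members, among 14.9% of all genes.

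Hbegf, whose heparin-binding product also activates Erbb4, stood at 73.2, 90.9 and 94.2 CPM at 0 h, at 54.6, 47.0 and 60.6 CPM at 6 h, and at 15.6, 16.0 and 17.8 CPM at 24 h (libraries 001, 002 and 003). The groups did not overlap between any of these times. The log2 difference from 0 h was -0.67 ± 0.25 at 6 h and -2.39 ± 0.26 at 24 h, given as a description.

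Ereg (epiregulin) stood at 46.8, 63.2 and 62.8 CPM at 0 h and at 17.1, 22.0 and 18.8 CPM at 24 h. Every 24 h library was below every 0 h library. The log2 change was -1.58 ± 0.41 (edgeR adjusted p = 0.026). With each of the 6 libraries left out in turn the call was kept only without the 0 h library 001 (log2 changes -1.71 to -1.50, adjusted p 0.0396 to 0.0903).

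Areg (amphiregulin) was the least abundant of the 3, with 14, 21 and 6 counts at 0 h (1.38, 1.74 and 0.498 CPM) and 4, 2 and 2 counts at 24 h (0.325, 0.155 and 0.145 CPM). The groups did not overlap, but counts this low make the size of the change imprecise (log2 change -2.49 ± 0.62, edgeR adjusted p = 0.0204). The call was kept in 2 of 6 fits that left out 1 library and lost without 0 h 001, 0 h 002, 24 h 002 or 24 h 003 (log2 changes -2.93 to -2.12, adjusted p 0.0171 to 0.0912).

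Errfi1 stood at 149, 115 and 97.3 CPM at 0 h, at 54.7, 57.4 and 66.8 CPM at 6 h and at 19.3, 36.5 and 30.4 CPM at 24 h. The libraries of the 3 times did not overlap. The change at 24 h was -2.07 ± 0.35 on the log2 scale (edgeR adjusted p = 0.00318), and it was called in all 6 fits that left out 1 library. At 6 h its log2 difference was -1.01 ± 0.34 and was not called (adjusted p = 0.589). Libraries 002 and 003 alone were a setting chosen after seeing the data. With them Errfi1 was called at 6 h (edgeR adjusted p = 0.0257), among 6.18% of all genes.

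Tgfa moved the other way in its means, at 4.04, 1.98 and 3.15 CPM at 0 h and at 7.72, 6.18 and 6.16 CPM at 24 h. Every 24 h library was above every 0 h library. The log2 difference of 1.13 ± 0.38 was not called by edgeR without the block (adjusted p = 0.0738) and was called with the library number as a block (1.16 ± 0.22, adjusted p = 0.0017). Egfr, at 70.6, 101 and 105 CPM at 0 h and at 95.6, 133 and 135 CPM at 24 h, differed by 0.40 ± 0.14 on the log2 scale. It was higher at 24 h in each of the 3 library numbers and was called with the block (edgeR adjusted p = 0.017) but not without it (0.0877). With the block 27.9% of all genes were called. Erbb2 had means of 39.3 and 39.5 CPM, a log2 difference of 0.00 ± 0.21. Erbb3 was too low to be tested in tumour cells, with at most 10 counts in any tumour library.

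Macrophage markers were also higher in the 24 h mono-cultured tumour libraries (16.4 to 1777 CPM summed over 12 markers) than in those at 0 h (14.6 to 353 CPM), and their part in these results was not tested. In library 001, where the marker sum was at most 26.2 CPM at every time, Hbegf, Ereg and Errfi1 were also lower at 24 h than at 0 h. That is 1 library per time, given as a description, and Hbegf was chosen for this pattern. CT010467.1 took 13.4% of counts in that 0 h library and 2.99% in that 24 h library. Fewer cells of a type and less RNA per cell cannot be told apart in such bulk samples. A list of mature oligodendrocyte genes was meant to trace RNA carried by the debris. In these tumour libraries it summed to 26.1 to 31.0 CPM at 0 h and to 35.1 to 41.3 CPM at 24 h. Mono-cultured macrophages, without debris at 0 h, held 154 to 177 CPM of it, and 143 to 158 CPM at 24 h. The list is thus not specific to debris, and the source of its higher 24 h sums in tumour libraries was not tested.

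**Figure D1:**
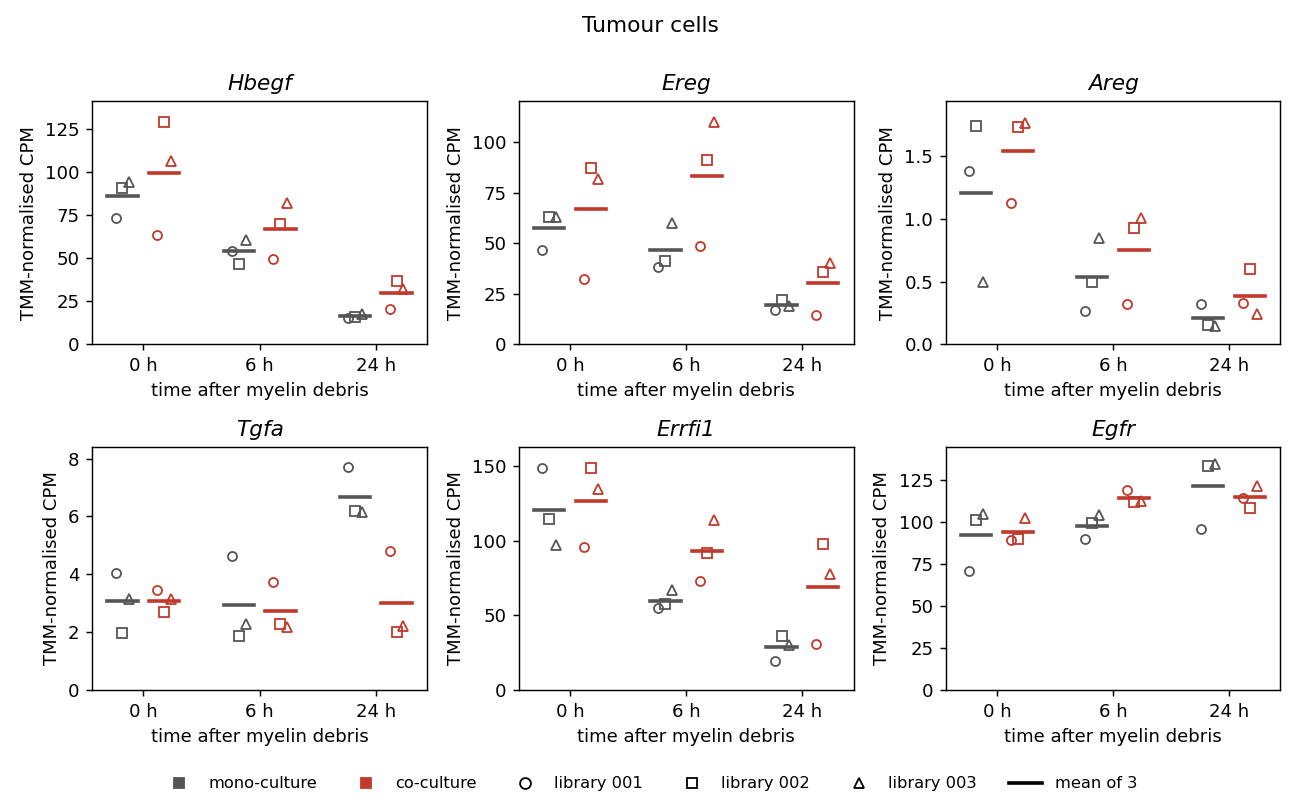
TMM-normalised CPM (linear axes from 0) of 6 genes in tumour cells by hours after myelin debris, with 1 symbol per library, its shape giving the library number, and a bar at the mean of 3. The means of Hbegf, Ereg, Areg and Errfi1 are lowest at 24 h, Tgfa is highest in mono-culture at 24 h (mean 6.69 CPM), and co-cultured library 001 lies below 002 and 003 for Hbegf, Ereg and Errfi1.

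In co-culture with macrophages, the same ligands had lower means after 24 h, but none of the 6 tested members was called by edgeR. At an unadjusted p under 0.05 there were 3, and DESeq2 called 0. Of all genes edgeR called 0.787% in this comparison, 0.478% higher and 0.309% lower, while DESeq2 called 3.06%. Hbegf stood at 63.7, 129 and 107 CPM at 0 h and at 20.7, 36.9 and 32.0 CPM at 24 h, with no overlap (log2 difference -1.74 ± 0.25, no test). With the library number as a block, which called 9.28% of all genes, Areg (-1.95 ± 0.52, adjusted p = 0.0307) and Ereg (-1.14 ± 0.23, adjusted p = 0.00922) were called.

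Ereg in co-culture stood at 32.3, 87.2 and 81.7 CPM at 0 h and at 14.6, 36.0 and 40.1 CPM at 24 h. It was lower at 24 h within each library number, while library 001 at 0 h lay below the 24 h values of libraries 002 and 003. Areg stood at 1.12, 1.74 and 1.76 CPM at 0 h and at 0.326, 0.600 and 0.239 CPM at 24 h, without overlap. Errfi1 stood at 95.8, 149 and 135 CPM at 0 h and at 30.9, 98.2 and 77.5 CPM at 24 h, and differed by -0.88 ± 0.34 on the log2 scale (edgeR adjusted p = 0.264, 0.0551 with the block). Tgfa had means of 3.09 CPM at 0 h and 3.01 CPM at 24 h, with a log2 difference of -0.04 ± 0.39.

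**Figure D2:**
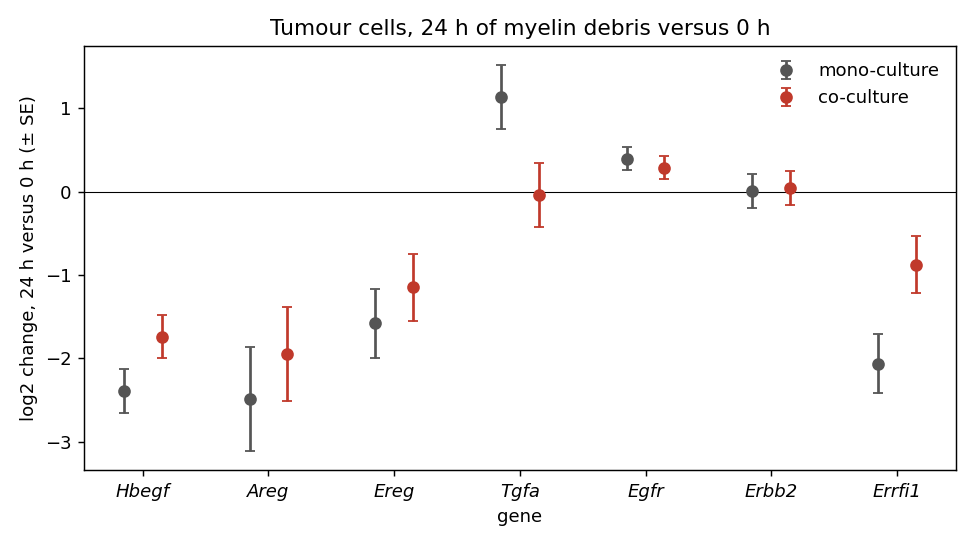
Log2 change from 0 h to 24 h after myelin debris for 7 genes in tumour cells, as points with the standard error, for mono-culture and co-culture. Tgfa lies at 1.13 in mono-culture and at -0.04 in co-culture, Errfi1 at -2.07 and -0.88, and Erbb2 lies near 0 in both.

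At 24 h, co-cultured tumour cells had more Errfi1 and less Tgfa in their means than those kept alone, and neither was called without the block. None of 6 tested members was called by edgeR, with 2 at an unadjusted p under 0.05, and DESeq2 called 1. Of all genes edgeR called 0.0809%, 0.0735% higher and 0.00735% lower, while DESeq2 called 3.08%. Errfi1 was higher in co-culture within each library number (log2 difference 1.26 ± 0.35, adjusted p = 0.127), and was called with the block (1.23 ± 0.29, adjusted p = 0.033) and by DESeq2. Tgfa was lower in every co-cultured library (-1.15 ± 0.38, adjusted p = 0.198) and was called with the block (-1.22 ± 0.22, adjusted p = 0.0145). The block called 6.12% of all genes here. Hbegf, described only, was higher in co-culture at 24 h, without overlap.

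Whether the 24 h change itself differed between the cultures was tested as an interaction. None of 6 tested members was called by edgeR or by DESeq2, with 2 at an unadjusted p under 0.05, and 0% of all genes were called by edgeR. The difference was 1.19 ± 0.48 for Errfi1 and -1.17 ± 0.55 for Tgfa (both adjusted p = 1, and 0.315 and 0.127 with the block). With libraries 002 and 003 alone, chosen after seeing the data, both were called (0.99 ± 0.23, adjusted p = 0.0471, and -1.71 ± 0.36, adjusted p = 0.0126), among 4.45% of all genes. At 6 h no tested member was called in tumour cells in mono-culture (0.00735% of all genes called, 1 member at an unadjusted p under 0.05), in co-culture (0.0147%, 0 members) or in the interaction (0%, 0 members). DESeq2 also called 0 in each. Between cultures, edgeR and DESeq2 called 0 members at 0 h and at 6 h, where edgeR called 0% of all genes and 0 members were under an unadjusted p of 0.05.

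Some of the genes that the pathway is known to induce fell in mono-cultured tumour cells. Of 18 early and feedback target genes, a list chosen with earlier results of these data known, 8 fell and 0 rose at 24 h, where 6.81% of all genes were called lower and 3.66% higher. The median log2 change was -1.29 over the list and 0.01 over all genes tested. The 3 largest changes were those of Dusp5, a phosphatase that switches off ERK (46.1 to 8.41 CPM, log2 change -2.45 ± 0.40, edgeR adjusted p = 0.00239), Fosl1, an AP-1 subunit (48.0 to 10.2 CPM, -2.24 ± 0.34, adjusted p = 0.00164), and Egr2, an early response transcription factor (45.4 to 9.89 CPM, -2.19 ± 0.59, adjusted p = 0.0306). The others called were Hmga2, Plaur, Etv4, Phlda1 and Myc. With the block 14 of the 18 were called lower (27.9% of all genes called in either direction), and with libraries 002 and 003 alone 14 (35.9%).

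Single libraries showed the same order. Dusp5 stood at 43.5, 46.0 and 48.8 CPM at 0 h and at 6.75, 8.43 and 10.1 CPM at 24 h in mono-culture. Etv4, a transcription factor downstream of ERK, stood at 33.5, 33.2 and 33.0 CPM and at 10.3, 9.51 and 9.49 CPM. Neither gene overlapped between the times. The early response gene Fos did not follow them, with means of 79.5 and 78.1 CPM and a wide error (log2 difference -0.03 ± 0.98).

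In co-cultured tumour cells at 24 h, 3 of the 18 target genes fell and 0 rose, where 0.787% of all genes were called (median log2 change -1.06 against 0.00 over all genes). These were Dusp5 (-2.09 ± 0.38, edgeR adjusted p = 0.0193), Etv4 (-1.31 ± 0.20, adjusted p = 0.00861) and Phlda1 (-1.07 ± 0.23, adjusted p = 0.0464). The block called 11 of the 18 lower (9.28% of all genes called in either direction), and libraries 002 and 003 alone 13 (22.6%).

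**Figure D3:**
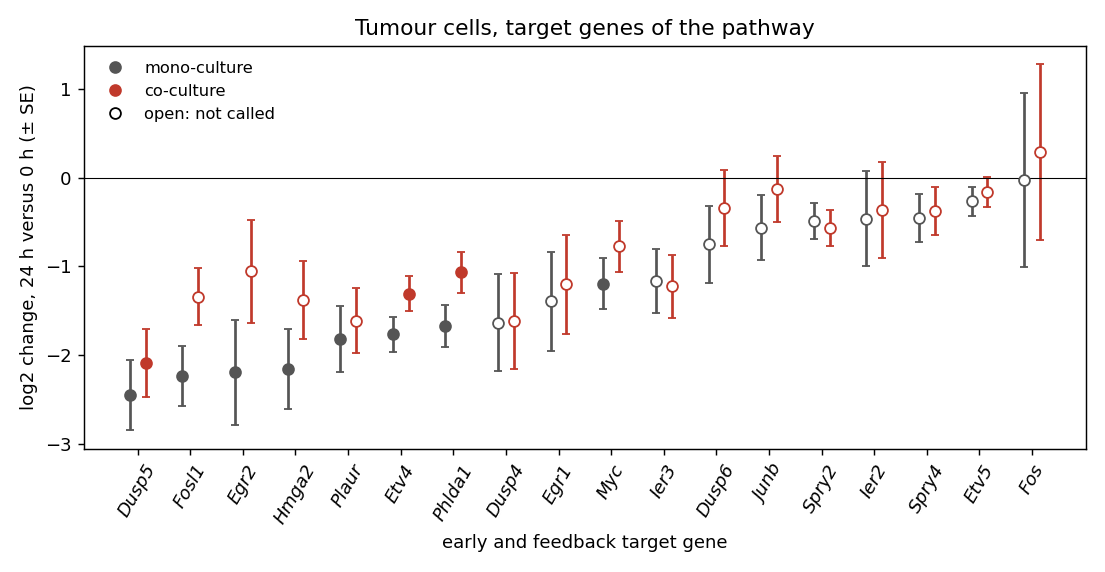
Log2 change from 0 h to 24 h after myelin debris (± SE) of 18 early and feedback target genes in tumour cells, in the order of the mono-culture value, with filled points for genes called by edgeR without the block. The 8 filled mono-culture points and the 3 filled co-culture points all lie below 0.

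In the other pathway lists, few genes were called in mono-cultured tumour cells at 24 h. In either direction the shares were near or below the 10.5% of all genes (6.81% lower). Here 1 of 11 shedding and trafficking genes fell, the metalloprotease Adam12 (50.2 to 22.9 CPM, log2 change -1.13 ± 0.27, edgeR adjusted p = 0.0183). Of 11 adaptors 1 fell, Eps8 (-0.47 ± 0.13, adjusted p = 0.0278), and of 15 genes of receptor restraint and turnover 2 fell, Sh3kbp1 (-0.61 ± 0.12, adjusted p = 0.00733) and Socs5 (-0.44 ± 0.13, adjusted p = 0.0456). None of these 3 lists had a gene called higher, so by direction the share lower in each was above the 6.81% of all genes. These shares rest on 1 or 2 genes per list, and the lists were not tested as sets. Of the other ligands and Erbb4, 4 of the 7 found could be tested. The neuregulin Nrg1, a ligand of Erbb3, had means of 46.9 and 42.5 CPM and was not called (log2 difference -0.14 ± 0.23, adjusted p = 0.728).

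Across the 18 tumour libraries, the genes whose log2(CPM + 1) followed Hbegf most closely were Dusp5 (Pearson r = 0.98), Sgk1 (0.97), Iffo2 (0.96), Tuba1c (0.96) and Fosl1 (0.95). Those nearest to Errfi1 were E2f8 (0.97), Pole (0.96), Mcm3 (0.96), Wdhd1 (0.95) and Ccne2 (0.95), genes of DNA replication and the cell cycle, and those nearest to Areg were Foxj3 (0.88), Csrnp1 (0.87), Poglut2 (0.87), Ptgs2 (0.87) and Macroh2a1 (0.87). Among the members, Hbegf correlated at 0.90 with Errfi1, 0.90 with Ereg, 0.81 with Areg and -0.65 with Tgfa. These values describe libraries that share time, culture and library number. Hbegf was chosen for its fall in these libraries, so high values with other genes that fell follow in part from that choice.

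In mono-cultured macrophages, edgeR called none of the 6 tested members after myelin, with 0 at an unadjusted p under 0.05 and 0 by DESeq2, at 6 h (2.15% of all genes called, 0.98% higher and 1.17% lower) and at 24 h (15.2%, 7.57% higher and 7.61% lower). DESeq2 called 4.57% of all genes at 6 h and 18.4% at 24 h. Areg and Tgfa were too low to be tested, with at most 1 count in any mono-cultured library. Hbegf stood at 1.59, 1.41 and 2.01 CPM at 0 h, at 2.13, 2.16 and 2.73 CPM at 6 h and at 1.40, 1.14 and 1.74 CPM at 24 h. Its 6 h libraries were all above those at 0 h, but the log2 difference of 0.49 ± 0.43 was not called (adjusted p = 0.636). Errfi1 had means of 13.3, 12.2 and 11.9 CPM and Erbb3 of 4.83, 5.29 and 4.62 CPM at 0 h, 6 h and 24 h.

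Of the 18 target genes, 7 fell and 0 rose in these macrophages at 24 h, where 7.61% of all genes were called lower and 7.57% higher. The median log2 change was -0.45 over the list and 0.00 over all genes. The largest changes were in Etv5, a transcription factor downstream of ERK (103 to 30.3 CPM, -1.75 ± 0.23, edgeR adjusted p = 0.000271), the growth regulator Myc (55.4 to 20.0 CPM, -1.47 ± 0.29, adjusted p = 0.00479) and Dusp5 (12.5 to 5.12 CPM, -1.29 ± 0.29, adjusted p = 0.00877).

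In co-cultured macrophages at 24 h, 1 of 6 tested members was called, Erbb3, where 11.4% of all genes were called, 5.39% higher and 6.02% lower. It stood at 3.78, 3.48 and 3.98 CPM at 0 h and at 7.13, 6.13 and 4.63 CPM at 24 h, without overlap (log2 change 0.67 ± 0.18, edgeR adjusted p = 0.0274). The call was kept in 1 of 6 fits that left out 1 library, that without 24 h library 003 (log2 changes 0.52 to 0.82, adjusted p 0.0174 to 0.112). The interaction for Erbb3 was not called (0.73 ± 0.26, adjusted p = 0.496). With the block Hbegf (-0.96 ± 0.31, adjusted p = 0.0408) and Errfi1 (-0.37 ± 0.12, adjusted p = 0.0367) were called as well, among 19.7% of all genes. At 6 h none of 6 was called by edgeR or DESeq2 (0.213% of all genes, 0 members at an unadjusted p under 0.05). The interaction called 0 members by either tool at 6 h (0% of all genes, 0 at an unadjusted p under 0.05) and at 24 h (0.0152%, 1 member).

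**Figure D4:**
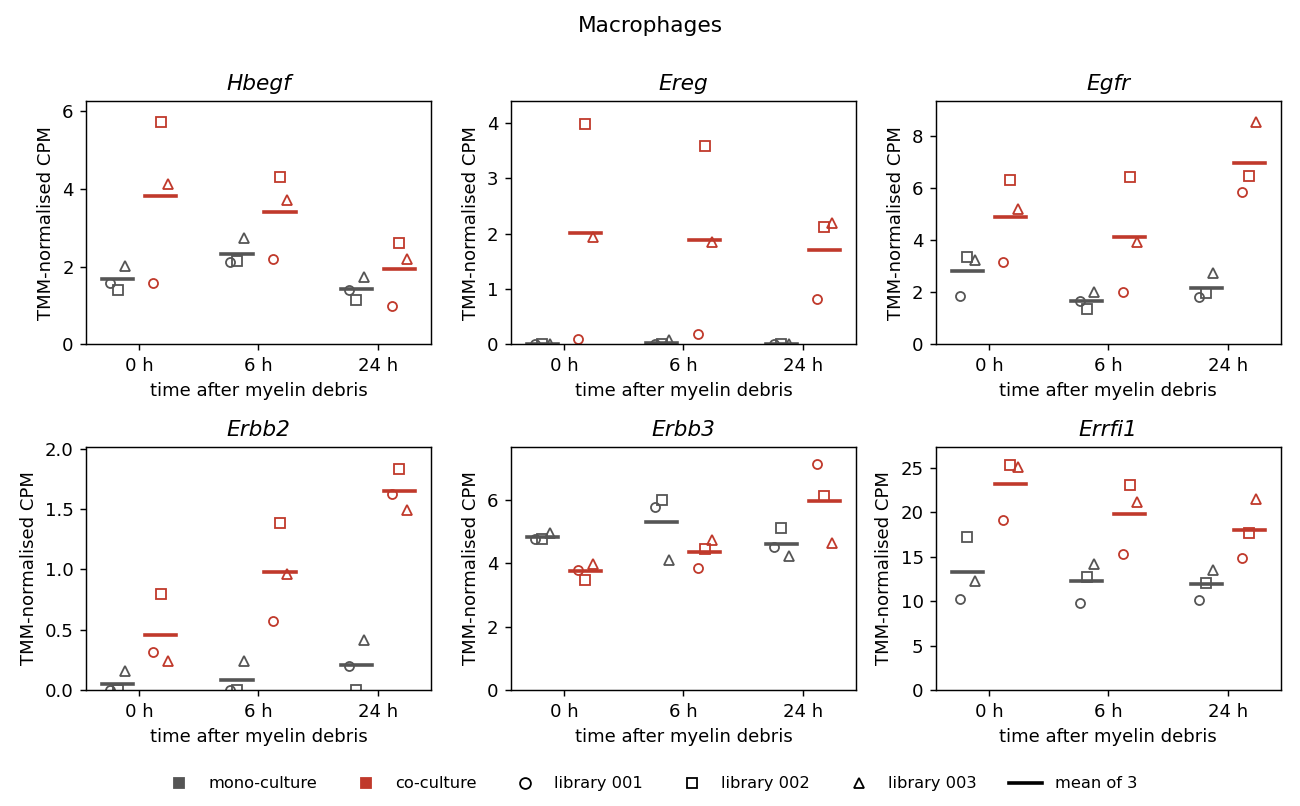
TMM-normalised CPM (linear axes from 0) of 6 genes in macrophages by hours after myelin debris, with 1 symbol per library and a bar at the mean of 3. The means of Ereg, Egfr, Erbb2 and Errfi1 are higher in co-culture at each time, and Erbb3 reaches its highest mean, 5.96 CPM, in co-culture at 24 h.

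Macrophages kept with tumour cells had more Ereg, Egfr, Erbb2 and Errfi1 than macrophages kept alone. At 0 h 2 of 6 tested members were higher (13.7% of all genes called, 7.69% higher and 6.02% lower), at 6 h 3 (9.94%, 5.81% higher and 4.12% lower) and at 24 h 4 (28%, 14.3% higher and 13.7% lower). None was called lower. Erbb3 lay lower in every co-cultured library at 0 h (mean 3.75 against 4.83 CPM) but was not called (log2 difference -0.37 ± 0.19, edgeR adjusted p = 0.223). Areg and Tgfa, untested, had 11 and 3 counts over the 3 co-cultured libraries at 0 h, 2 and 3 at 6 h, and 6 and 1 at 24 h.

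Ereg, absent or nearly so from mono-cultured macrophages, had 1, 55 and 24 counts in co-culture at 0 h, 2, 49 and 27 at 6 h and 9, 30 and 28 at 24 h. Library 001 was the lowest at each time. Ereg was at least 26.0-fold higher in co-culture at 0 h and at least 21.2-fold higher at 24 h, against a floor of 3 counts over the mono-culture group, with edgeR adjusted p of 0.0203 and 0.013. At 6 h the ratio was 68.4 (95% counting interval 11.9 to 2736, edgeR adjusted p = 0.0436). With 1 library left out the call was kept in all 6 fits at 24 h. It was kept in 3 of 6 at 0 h, being lost without mono-culture 002 or 003 or co-culture 002 (adjusted p 0.00629 to 0.0672). At 6 h it was kept only without co-culture 001 (adjusted p 0.0203 to 0.132).

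Egfr stood at 5.86, 6.48 and 8.55 CPM in co-culture and at 1.80, 1.99 and 2.73 CPM in mono-culture at 24 h. The groups did not overlap (log2 difference 1.67 ± 0.36, edgeR adjusted p = 0.00281), and all 6 fits that left out 1 library called it. At 6 h the difference was 1.31 ± 0.38 (adjusted p = 0.0369), kept only without co-culture 001 (log2 differences 0.84 to 1.63, adjusted p 0.0073 to 0.229). Erbb2 stood at 1.62, 1.83 and 1.49 CPM in co-culture and at 0.201, 0 and 0.414 CPM in mono-culture at 24 h (2.99 ± 0.90, adjusted p = 0.0206). Its call was lost without mono-culture 001 or 002 or co-culture 002 (log2 differences 2.36 to 4.09, adjusted p 0.0219 to 0.0675).

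Errfi1 was higher in every co-cultured library than in every mono-cultured one at each time. At 0 h it stood at 19.1, 25.3 and 25.1 CPM against 10.2, 17.2 and 12.3 CPM. The log2 difference was 0.79 ± 0.21 at 0 h (edgeR adjusted p = 0.0177), 0.68 ± 0.21 at 6 h (adjusted p = 0.0486) and 0.59 ± 0.21 at 24 h (adjusted p = 0.0436). With 1 library left out the call was kept in 2 of 6 fits at 0 h (lost without mono-culture 001 or 003 or co-culture 002 or 003, adjusted p 0.00833 to 0.0791). It was kept in 1 of 6 at 6 h (only without co-culture 001, adjusted p 0.0248 to 0.197) and in 2 of 6 at 24 h (lost without mono-culture 001 or 002 or co-culture 002 or 003, adjusted p 0.027 to 0.177). Hbegf at 0 h had 1.58, 5.73 and 4.14 CPM in co-culture against 1.59, 1.41 and 2.01 CPM, and was called only with the block (1.20 ± 0.33, adjusted p = 0.017, against 0.0687 without it), which called 19.5% of all genes.

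Mean levels of 4 tumour cell markers were also higher in macrophages in co-culture. These 4 were picked from the glioma markers by their level in mono-culture at 0 h. Each had at least 5 CPM in tumour cells and at least 20 times the macrophage level. The median level of Pdgfra, Sox2, Sox9 and Cspg4 in a macrophage library, as a share of their mean level in tumour cells of the same culture and time, was 1.26 to 4.89% in co-culture and 0.0981 to 1.04% in mono-culture. In co-cultured libraries 001, 002 and 003 this median was 2.27, 3.88 and 2.91% at 0 h and 4.07, 3.21 and 4.89% at 24 h. The same share for Ereg was 0.157, 5.95 and 2.90% at 0 h and 2.69, 6.99 and 7.27% at 24 h. The gain in CPM from mono-culture to co-culture was expressed as a share of the mean level in co-cultured tumour cells at the same time. At 24 h it was 5.65% of the tumour cell level for Ereg, 4.18% for Egfr, 3.69% for Erbb2 and 1.69% for Hbegf, against 2.90 to 8.84% for the 4 markers. For Errfi1 the gain was 7.83%, 8.17% and 8.85% at 0 h, 6 h and 24 h. The marker Cspg4, which macrophages also expressed alone, gained 8.11%, 4.73% and 8.84%, and the other 3 markers at most 3.81%. The part of tumour cell RNA in these differences was not tested.

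**Figure D5:**
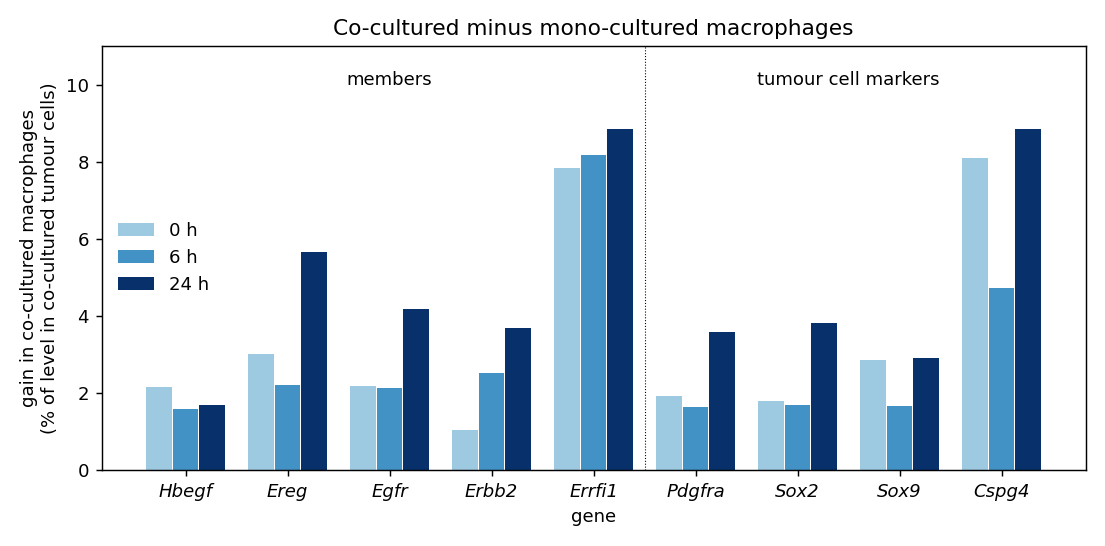
Difference in mean CPM between co-cultured and mono-cultured macrophages, as a percent of the mean CPM in co-cultured tumour cells at the same time (bars from 0), for 5 members and 4 tumour cell markers. The other 4 members shown lie between 1.06 and 5.65%, and Errfi1 lies between 7.83 and 8.85%.

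In co-cultured against mono-cultured macrophages at 24 h, 28% of all genes were called (14.3% higher, 13.7% lower). Of 18 early and feedback target genes 5 were higher and 1 was lower (median log2 difference 0.53 against -0.03 over all genes). The largest differences were in the stress-inducible gene Ier3 (5.08 and 22.6 CPM, 2.15 ± 0.27, edgeR adjusted p = 5.13e-05), in Egr2 (140 and 31.7 CPM, -2.14 ± 0.24, adjusted p = 2.5e-05) and in the ERK phosphatase Dusp6 (33.6 and 140 CPM, 2.05 ± 0.22, adjusted p = 1.5e-05). Of 15 genes of receptor restraint and turnover, 1 was higher and 4 were lower. In either direction, the shares called in both of these lists are near the 28% of all genes. By direction, the share higher in the first list and the share lower in the second are above those of all genes. Of 11 adaptors 2 were higher and 4 lower, a share above that of all genes, as for the shedding list below. The lists were not tested as sets. The receptor inhibitor Lrig1 was higher (1.97 and 11.8 CPM, 2.57 ± 0.40, adjusted p = 0.000262) and Zfand5 lower (-1.01 ± 0.09, adjusted p = 4.55e-06). Of 11 shedding and trafficking genes 4 were higher and 2 lower, led by Timp3, an inhibitor of Adam17 (1.21 and 99.2 CPM, 6.31 ± 0.66, adjusted p = 1.77e-05). Timp3 stood at 2209 CPM in co-cultured tumour cells at 24 h, and its gain in macrophages was 4.43% of that level.

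Across the 18 macrophage libraries, genes near to Errfi1 included Ass1 (Pearson r = 0.94), Cav1 (0.93), Sla (0.92) and Clec5a (0.90). Those nearest to Hbegf were Rhob (0.86), Tcp1 (0.80), Crk (0.80), Cd164 (0.79) and Hars (0.79). These libraries share culture, time and library number, and the values are descriptions with no test.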

How the data were processed

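The deposited table holds counts of reads per gene that the authors made from oligo-dT primed, template-switched libraries of sorted cells, per the labels' protocols. The genome build is mm10, per the submitters' processing notes, and no aligner or counter is named in the sources used here. Counts were tested with edgeR 4.0.16 (TMM, filterByExpr, robust quasi-likelihood) in R 4.3.3, with 1 fit of 18 libraries per cell type (13165 genes in macrophages, 13603 in tumour cells) and 1 of all 36 for the difference between cell types (14776). Calls needed an adjusted p (Benjamini-Hochberg, over all genes tested) under 0.05. The standard error is the size of the log2 change over the square root of F. Levels are TMM-normalised CPM within a cell type. The members and lists were chosen with earlier results of these data known. Members are all named. Of each list, up to 3 called genes with the largest change and at least 5 CPM are named, with a few others chosen after their values were seen. The 5 genes that correlate best with Hbegf, Areg and Errfi1 are named, except 1 that is not reported here. The lowest same-number correlation of residuals was above 0.1 in 14 of 19 comparisons (0.157 to 0.667), and the exceptions were co-culture against mono-culture in macrophages at 6 h and 24 h, the macrophage interactions, and macrophages against tumour cells. Counting intervals and floors cover counting error only. In counts simulated for the 24 h mono-culture comparison, 94% of macrophage genes and 77% of tumour cell genes with a log2 change of 1 were recovered. The changed genes all had a mean above 5 CPM, and the simulated libraries had no effect of the library number. These rates therefore do not cover members at lower levels. The alternatives tried were the library number as a block, DESeq2 1.42.0, non-robust dispersions, size factors by RLE, a fit of only the groups compared, no filter on low counts, the genes CT010467.1 and Lars2 removed, and each library left out. Libraries 002 and 003 alone were added after seeing the data.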

Additional observations from a re-analysis of the deposited data

How the results depend on the processing

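The number of members called was recomputed in 19 comparisons. It stayed within 1.5 times its value in all 19 with RLE size factors, with non-robust dispersions and with the genes CT010467.1 and Lars2 removed, in 18 with DESeq2, 17 with only the groups compared, 16 without the low-count filter, 15 with the replicate block and 13 with libraries 002 and 003 alone. Below, brackets give the share of all genes called under the same setting. Without the filter the count became 0 (3.92%) in co-cultured macrophages at 24 h. Between the macrophage cultures it became 1 (5.71%) at 0 h and 2 (11.9%) at 24 h. With only the groups compared it became 1 (13.5%) at 0 h and 0 (6.24%) at 6 h between the macrophage cultures. With the replicate block it became 3 (19.7%) in co-cultured macrophages at 24 h. In tumour cells at 24 h the block gave 5 (27.9%) in mono-culture, 2 (9.28%) in co-culture and 2 (6.12%) between cultures. DESeq2 gave 1 (3.08%) between cultures in tumour cells at 24 h. In tumour cells, libraries 002 and 003 alone gave 1 (6.18%) in mono-culture and 2 (9.16%) between cultures at 6 h. At 24 h they gave 5 (35.9%) in mono-culture, 4 (22.6%) in co-culture, 4 (24.1%) between cultures and 2 (4.45%) in the interaction. The cause was not tested, except that fewer genes or libraries entered some fits.

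With each library left out, the counts ran from 0 to 1 in co-cultured macrophages at 24 h, from 0 to 3 between macrophage cultures at 0 h and at 6 h and from 2 to 4 at 24 h, and in tumour cells from 1 to 3 in mono-culture at 24 h, from 0 to 1 in co-culture at 24 h and from 0 to 2 between cultures at 24 h. Signs were compared only for results called in at least 1 setting and for Hbegf where it was given without a test. Among these, a sign changed in 3 uncalled or untested results, each near 0. In tumour cells, Hbegf in co-culture against mono-culture at 0 h had a log2 difference of 0.21 and ran from -0.0161 (without co-culture 002) to 0.4482. Its 6 h interaction of 0.10 became -0.1247 without co-culture 0 h 001 and -0.0714 without co-culture 6 h 003, with a highest value of 0.3297. Egfr in co-culture against mono-culture at 24 h, -0.08, ran from -0.2257 to 0.0153, the last without mono-culture 003.

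Counts over all genes moved further. In mono-cultured tumour cells at 24 h 1424 genes were called, against 3793 with the replicate block and 4828 with libraries 002 and 003 alone. In co-culture the numbers were 107, 1263 and 3038, and between cultures at 24 h 11, 833 and 3248. Co-cultured macrophages at 24 h had 1502, and 2598 with the block. Counts of a few reads limit Areg and Tgfa in macrophages and Erbb3 in tumour cells.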
